A study of Mus musculus with 2 samples.

Results

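The miR-99/100 and miR-125 families comprise 6 named members here, miR-99a, miR-99b, miR-100, miR-125a, miR-125b and miR-351. Members were found by name among the mature miRs counted in mouse sperm, with both arms of every hairpin kept, and each of the 6 names was present. This gave 13 of the 1886 entries in the count tables, 6 of them 5p arms and 7 of them 3p arms, since miR-125b is made from 2 hairpins whose 3p arms differ. Of the 13 entries, 11 had at least 1 read in each library, against 378 of all 1886 entries.

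The source was sperm of wild-type C57BL/6J mice, from which the small RNA of 2 independent samples was sequenced, giving 1 library each. The labels give the mice as naive, at an age of 3 months, and no treatment or allele is named for them, so the libraries form 1 group and no contrast between conditions exists. Sperm were released from the dissected epididymis and treated with a hypotonic detergent buffer to break remaining somatic cells, and the number of mice behind each library is not given in the sources used here. The names of the deposited tables carry the string POSTTREAT, which does not match the label naive, and this was not resolved.

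A miR is a short RNA cut from a hairpin precursor that pairs with messenger RNAs mainly through its seed, the bases from position 2 to position 8. The miR-99/100 family is known for targeting the growth kinase Mtor and shares an ancestor with the miR-10 family. The miR-125 family contains the vertebrate counterparts of lin-4, the developmental timing miR of worms, and is known for repressing Lin28, itself a repressor of let-7. In many animals these miRs are encoded beside a let-7 gene, as a miR-100-type, a let-7-type and a miR-125-type hairpin in a row, while miR-351 is a rodent miR-125 relative encoded on the X chromosome.

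The 5p arms fell into 2 groups by their seed, and their mature sequences are printed here because the seed defines the groups and the remaining bases decide which reads can be told apart. All 13 entries matched RefSeq mature sequences (GRCm38.p6). The sequences run from 5′ to 3′ with the seed in capitals. The seed ACCCGUA was shared by 3 members:
miR-99b-5p: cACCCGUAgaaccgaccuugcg
miR-100-5p: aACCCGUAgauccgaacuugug
miR-99a-5p: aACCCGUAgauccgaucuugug
The seed CCCUGAG was shared by the other 3 members:
miR-125a-5p: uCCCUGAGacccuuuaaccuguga
miR-125b-5p: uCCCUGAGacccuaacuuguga
miR-351-5p: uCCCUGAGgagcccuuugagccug

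Counted from the 5′ end, miR-100-5p and miR-99a-5p differ by the single substitution A16U. Their first 15 bases are the same, and 15 bases is also the shortest read the authors kept, so a read cut to that length at the 3′ end fits both. How such reads were assigned is not given in the sources used here. miR-99b-5p differs from miR-100-5p by A1C, U11A, A16C and U21C, and shares no stretch longer than 9 bases with it. miR-125a-5p and miR-125b-5p share their first 13 bases, and miR-351-5p shares only the first 8 bases with either. Apart from the pair of miR-99a-5p and miR-100-5p, no exact stretch of 15 or more bases was shared between a member and any other of the 1608 entries with a RefSeq sequence. Outside the members, miR-6367 and miR-6394 carried the seed CCCUGAG, and both had 0 reads in each library.

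Replicate 1 held 4049599 miR reads and replicate 2 held 5648067, and a further 38.1% and 26.3% of the listed reads were assigned to no miR. Abundance is given as CPM, the reads of an entry per 1000000 miR reads of its library, and 3 reads, taken as the smallest level the depth can show, were 0.741 CPM in replicate 1 and 0.531 CPM in replicate 2. Reads without molecular identifiers are not independent molecules, so the intervals below (Wilson, 95%) cover counting error only. Between 5 and 6 entries each of marker sets for testicular germ cells, epithelium and blood had reads in both libraries, as did 4 of 4 for smooth muscle and stroma, 4 of 4 for brain and 2 of 3 for skeletal muscle. From replicate 1 to replicate 2 the germ cell set went from 0.347% to 0.1504% of the miR reads and the epithelial set from 1.07% to 0.880%. The smooth muscle and stroma set went from 4.10% to 6.22%, and the blood set from 0.328% to 0.715%. Each of these shares came mostly from a single entry. By mean, these were miR-34c-5p (2148 CPM), miR-141-3p (7721 CPM), miR-143-3p (51371 CPM) and the joined entry of miR-486a-5p and miR-486b-5p (4997 CPM). The brain set was at 0.0503% and 0.0221%, and the skeletal muscle set at 0.00222% and 0.00239%. In such bulk RNA, fewer cells of a type and less RNA per cell cannot be told apart.

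The 13 entries together took 62323 reads in replicate 1 and 82377 reads in replicate 2. This was 1.54% of the miR reads in replicate 1 (95% interval 1.53% to 1.55%) and 1.46% in replicate 2 (1.45% to 1.47%), a mean of 1.499% ± 0.0569 (SD, n = 2 libraries). Nearly all of it came from the 6 5p arms, with 1.49% ± 0.0578 (SD, n = 2), while the 7 3p arms took 0.00837% and 0.00965%. The 3 arms with the miR-99/100 seed took 0.935% and 0.931% of the miR reads, and the 3 arms with the miR-125 seed took 0.596% and 0.518%. The miR-99/100 seed was thus the more abundant of the pair in each library, by more than the libraries differed.

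miR-99b-5p led the family. It had 28435 reads in replicate 1 and 40544 in replicate 2, or 7022 and 7178 CPM, and ranked 10th by mean among the 378 entries with a read in both libraries. Its levels in the libraries were close, 7100 ± 111 CPM (SD, n = 2). It stood apart from its seed relatives, with 75.1% of the reads of its seed group in replicate 1 and 77.1% in replicate 2.
miR-100-5p had 6170 and 7633 reads, or 1524 and 1351 CPM, 1438 ± 122 CPM (SD, n = 2), and ranked 26th. miR-99a-5p had 3262 and 4386 reads, or 806 and 777 CPM, 791 ± 20.5 CPM (SD, n = 2), and ranked 35th. miR-100-5p was 1.89 times and 1.74 times as abundant as miR-99a-5p in the 2 libraries, although these are the members that differ by 1 base. They made up 16.3% and 14.5% (miR-100-5p) and 8.61% and 8.34% (miR-99a-5p) of the seed group.

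miR-125a-5p, the second most abundant member, had 15936 and 19602 reads, or 3935 and 3471 CPM, 3703 ± 329 CPM (SD, n = 2), and ranked 15th. miR-125b-5p had 7827 and 8934 reads, or 1933 and 1582 CPM, 1757 ± 248 CPM (SD, n = 2), and ranked 22nd. miR-125a-5p was 2.04 times as abundant as miR-125b-5p in replicate 1 and 2.19 times in replicate 2, although miR-125b-5p has 2 hairpins as a source and miR-125a-5p has 1. miR-125a-5p made up 66.1% and 67.0% of the reads of the miR-125 seed group, and miR-125b-5p made up 32.5% and 30.5%.
miR-351-5p was the least abundant 5p arm. It had 354 and 733 reads, or 87.4 CPM (78.8 to 97.0) and 130 CPM (121 to 140), 109 ± 29.96 CPM (SD, n = 2), and ranked 75th. It took 1.47% and 2.50% of the seed group. Its CPM intervals in the 2 libraries did not overlap, which was also so for every other 5p arm except miR-99a-5p.

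**Figure D1:**
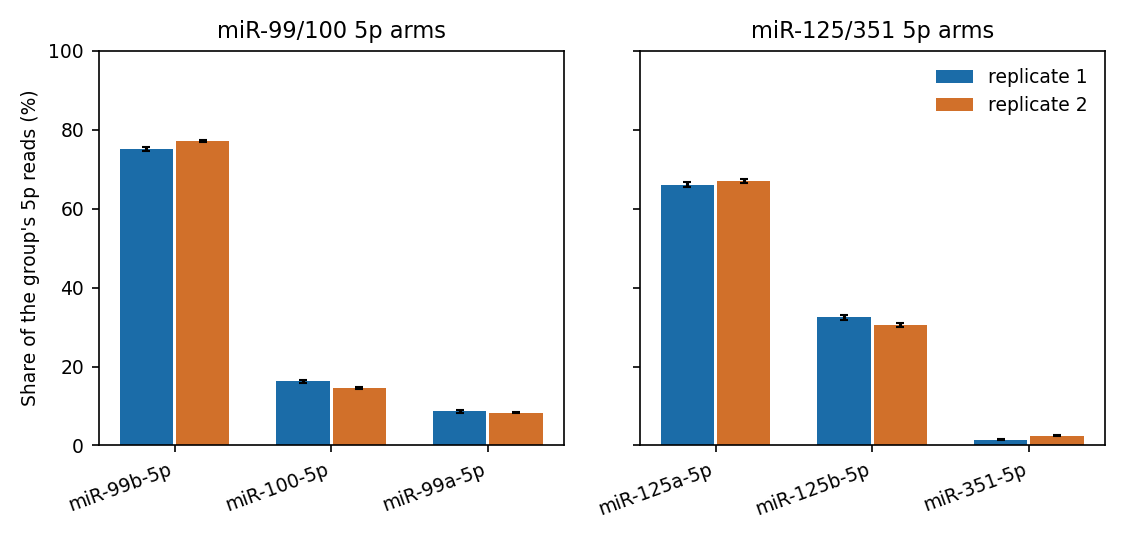
Share of the 5p reads of each seed group (y axis, %) taken by each member (x axis) in replicate 1 (blue) and replicate 2 (orange), with Wilson 95% intervals as error bars. miR-99b-5p takes 75.1% and 77.1% of the miR-99/100 group and miR-125a-5p takes 66.1% and 67.0% of the miR-125 group with miR-351-5p, and the order of the members is the same in both libraries.

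The order of the 6 5p arms was the same in both libraries, from miR-99b-5p through miR-125a-5p, miR-125b-5p, miR-100-5p and miR-99a-5p to miR-351-5p. Each neighbour in this order was separated from the next without overlap between the libraries, but the gap was narrowest between miR-125b-5p and miR-100-5p. Their means differed by 320 CPM, where the SD of miR-125b-5p between the libraries was 248 CPM, so the gap was not much larger than that spread. Within the libraries, miR-125b-5p was 1.27 times as abundant as miR-100-5p in replicate 1 and 1.17 times in replicate 2. With 2 libraries no test of these differences was made. miR-99a-5p exceeded miR-351-5p by 9.21 times in replicate 1 and 5.98 times in replicate 2, the widest step among the 5p arms. Such differences between miRs of different sequence also carry the preferences of ligation and amplification in library preparation, whose part was not tested. By distance of log2(CPM + 1) over the 2 libraries, the entries closest in level to miR-99b-5p were miR-141-3p (distance 0.25, 7721 ± 911 CPM, SD, n = 2) and miR-26a-5p (0.44, 5803 ± 446 CPM). Those closest to miR-125a-5p were miR-181a-5p (0.38, 3084 ± 391 CPM, SD, n = 2) and miR-27b-3p (0.54, 2876 ± 497 CPM).

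**Figure D2:**
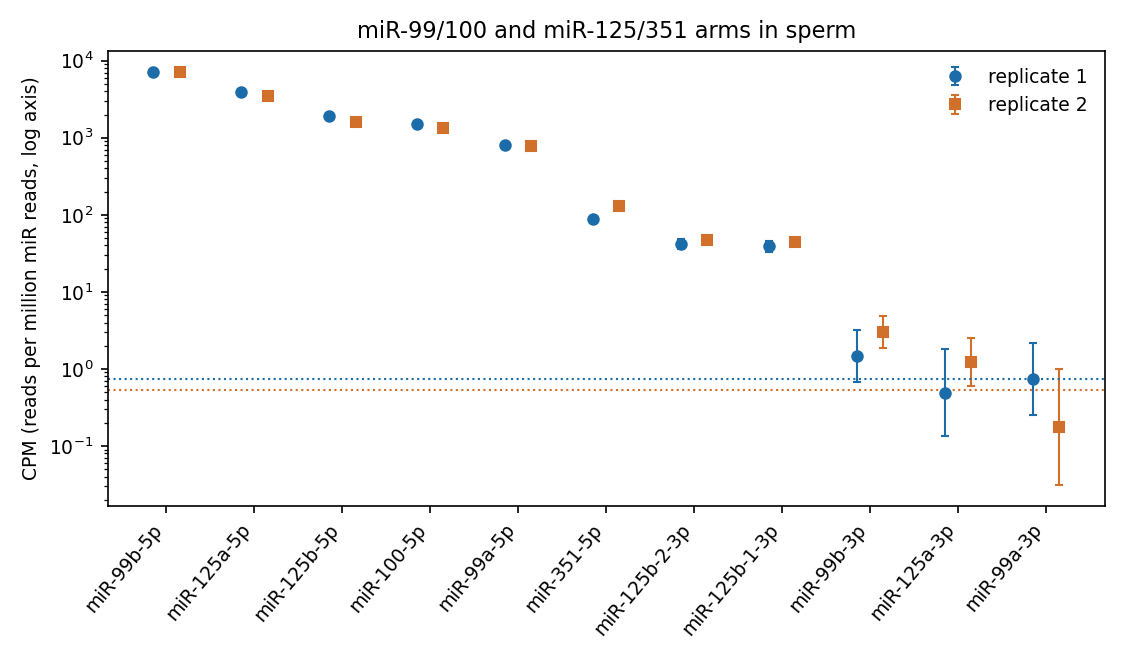
Abundance of the 11 detected arms (x axis) in CPM on a log axis (y axis), in replicate 1 (blue circles) and replicate 2 (orange squares), with Wilson 95% intervals as error bars and the level of 3 reads in each library as dotted lines. The 6 5p arms lie between 87.4 and 7178 CPM and both miR-125b 3p arms near 40 to 50 CPM. The remaining 3p arms lie between 0.177 and 3.01 CPM, on both sides of the dotted lines.

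The 5p arm carried nearly all reads of each hairpin except those of miR-125b. For miR-99b the 3p arm had 6 and 17 reads beside the 28435 and 40544 reads of the 5p arm, a 5p share of 99.98% and 99.96%. miR-125a-3p had 2 and 7 reads, and miR-99a-3p had 3 reads and 1 read. miR-100-3p and miR-351-3p had 0 reads in each library, with Wilson upper bounds of 0.949 CPM in replicate 1 and 0.680 CPM in replicate 2 for each of them. These bounds lie above the level of 3 reads, 0.741 and 0.531 CPM. miR-99a-3p and miR-99b-3p share the bases AAGCUCG at positions 2 to 8, a seed held by no other entry with a sequence.
Hairpins dominated by their 5p arm were common in these libraries. Of 136 hairpin names with 2 arms and at least 100 reads over both libraries, 62 had more than 95% of their reads on the 5p arm, which is 45.6%, and 42 had more than 95% on the 3p arm. All 6 members were above 95% on the 5p arm over both libraries, with a median 5p share of 99.97%, where the median over the 136 names was 90.5%.

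miR-125b was the exception among the members. Its 3p arms had 328 reads in replicate 1 and 520 in replicate 2, and its 5p share was 96.0% (95.5% to 96.4%) in replicate 1 and 94.5% (94.0% to 94.9%) in replicate 2. The mature 5p arm is the same in both hairpins, while the 3p arms differ and can be assigned to a hairpin. They are printed with the bases at positions 2 to 8 in capitals:
miR-125b-1-3p: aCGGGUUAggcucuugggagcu
miR-125b-2-3p: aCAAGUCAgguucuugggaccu
miR-125b-1-3p had 158 and 250 reads, or 39.0 and 44.3 CPM, and miR-125b-2-3p had 170 and 270 reads, or 42.0 and 47.8 CPM. The hairpin on chromosome 9 thus gave 48.2% of the 3p reads in replicate 1 (42.8% to 53.6%) and 48.1% in replicate 2 (43.8% to 52.4%), and the hairpin on chromosome 16 gave the rest. The levels of the 3p arms overlapped between the libraries and were not told apart. The split of the 5p reads between the hairpins cannot be read from the counts.
The precursors of miR-125a and miR-125b-1 show where the arms lie. They are printed from RefSeq with the 5p arm first and the 3p arm second in capitals, the plus strand of chr17:17830812-17830879 and of chr9:41581926-41582002 (GRCm38.p6):
Mir125a: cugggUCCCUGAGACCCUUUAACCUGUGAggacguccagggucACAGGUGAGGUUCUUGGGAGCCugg
Mir125b-1: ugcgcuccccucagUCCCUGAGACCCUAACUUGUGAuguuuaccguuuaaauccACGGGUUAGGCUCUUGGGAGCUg
For miR-125a, 15936 and 19602 reads of the 5p arm stood beside 2 and 7 reads of the 3p arm. For miR-125b, with both 3p arms summed, there were 23.9 and 17.2 reads of the 5p arm for each read of the 3p arms.

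The members lie in 4 gene clusters of GRCm38 (GENCODE M21), 3 of them with a let-7 gene in the middle. On the plus strand of chromosome 17, Mir99b (17830188 to 17830257), Mirlet7e (17830352 to 17830444) and Mir125a (17830812 to 17830879) lie within 692 bases. They are within Spaca6, which encodes a sperm protein needed for fusion with the egg. Only 2 of the 16 annotated Spaca6 transcripts span Mir99b and Mirlet7e, which are in intron 1 of these. Mir125a is spanned by 3 of the 16 and overlaps an exon of 1 of the 16. On the plus strand of chromosome 16, Mir99a (77598936 to 77599000), Mirlet7c-1 (77599657 to 77599750) and Mir125b-2 (77646273 to 77646343) span 47408 bases in introns of the non-coding host gene Mir99ahg. Each of these hairpins is spanned by 4 of its 17 annotated transcripts. Mir99a and Mirlet7c-1 also lie in an intron of the antisense protein-coding gene Gm11146. On the plus strand of chromosome 9, Mir100 (41531425 to 41531504), Mirlet7a-2 (41536716 to 41536811) and Mir125b-1 (41581926 to 41582002) span 50578 bases within the non-coding gene 3110039I08Rik, in introns of its transcripts. Mir100 also overlaps an exon of the antisense gene Gm48742, and Mir125b-1 lies in the sense intronic gene Gm28119. Mir351 (53053255 to 53053353) lies on the minus strand of the X chromosome, 630 bases from Mir503.

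The cluster within Spaca6 gave the most abundant member of each seed group. miR-99b-5p and miR-125a-5p together made up 71.2% of the members' reads in replicate 1 (70.8% to 71.5%) and 73.0% in replicate 2 (72.7% to 73.3%). miR-100-5p and miR-99a-5p together made up 15.1% and 14.6%, miR-125b-5p made up 12.6% and 10.8%, and miR-351-5p made up 0.568% and 0.890%. The let-7 arm between them did not share their level. let-7e-5p had 1405 and 2028 reads, or 347 and 359 CPM, and miR-99b-5p exceeded it 20.2 times in replicate 1 and 19.99 times in replicate 2. miR-125a-5p exceeded let-7e-5p 11.3 times and 9.67 times.
In the other clusters the order was turned. let-7c-5p had 6409 and 4922 CPM, and miR-99a-5p was at 0.126 and 0.158 of that level and miR-125b-5p at 0.302 and 0.321. let-7a-5p had 3358 and 2405 CPM, with miR-100-5p at 0.454 and 0.562 and miR-125b-5p at 0.576 and 0.658 of its level. let-7c-5p and let-7a-5p each come from 2 hairpins, of which 1 lies outside these clusters. For the hairpins inside them, let-7a-2-3p had 0 reads in each library and let-7c-1-3p had 1 and 7. The joined 3p entry of the outside hairpins, let-7c-2-3p with let-7a-1-3p, had 23 and 37 reads. How the let-7 5p reads split between hairpins was not tested. miR-125b-5p is shared by both clusters, so these ratios do not give the output of a single locus. The ratios within the Spaca6 cluster are free of that limit, as each of its 3 mature 5p arms has 1 hairpin in RefSeq.

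**Figure D3:**
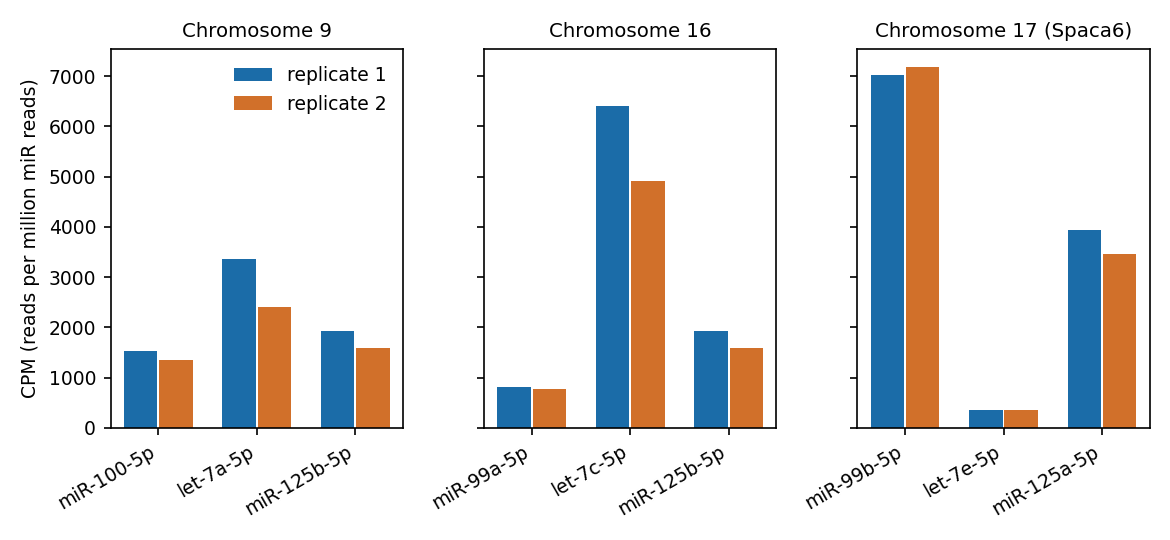
CPM (y axis, from 0) of the 5p arms of the clusters with a let-7 gene, in genomic order (x axis), in replicate 1 (blue) and replicate 2 (orange). The let-7 arm is the highest of its cluster on chromosomes 9 and 16 and the lowest on chromosome 17, at 347 and 359 CPM beside 7022 and 7178 CPM of miR-99b-5p. miR-125b-5p appears in 2 panels because its reads cannot be split between its hairpins. let-7a-5p and let-7c-5p each also have a hairpin outside these clusters, so their bars do not give the output of the cluster alone.

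miR-351-5p exceeded the miRs encoded around it. The other hairpins of its X-linked cluster, of miR-322, miR-503, miR-542, miR-450a and miR-450b, have 11 entries in the tables. These 11 entries summed to 47 reads in replicate 1 and 120 in replicate 2, against 354 and 733 reads of miR-351-5p, which was 7.53 and 6.11 times their sum. miR-322-5p, a relative of miR-15 and miR-16 with a known role in the cell cycle, was the highest of them with 28 and 83 reads, or 6.91 and 14.7 CPM, and 5 of the 11 entries had 0 reads in replicate 1 and 3 in replicate 2.

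The members' levels in the 2 libraries were close when scaled as CPM. On the scale of log2(CPM + 1), the difference of replicate 2 from replicate 1 was 0.03 for miR-99b-5p, -0.05 for miR-99a-5p, -0.17 for miR-100-5p, -0.18 for miR-125a-5p and -0.29 for miR-125b-5p. It was 0.56 for miR-351-5p, 0.18 for each of the miR-125b 3p arms and 0.69 for miR-99b-3p, which had only 6 and 17 reads. The 95% counting interval of this ratio excluded equality for 5 of the 6 5p arms, miR-99a-5p being the other. At this depth even the difference of miR-99b-5p exceeded counting error with CPM. The interval was not computed under other scalings, and with the size factors of DESeq2 miR-125b-5p was at -0.008 and miR-99a-5p at 0.23. The interval also excluded equality for 87% of the 77 entries with a mean of at least 100 CPM, and for 50.8% of the 323 entries whose summed count reached 10 reads, so the members' count is close to that of other abundant miRs.
Of the 323 entries whose summed count over both libraries reached 10 reads, 3.1% were at least 2-fold higher and 16.7% at least 2-fold lower in replicate 2. With the pseudocount of 1 CPM none of the 9 members among them moved that far. Without a pseudocount, an alternative chosen after seeing the data, miR-99b-3p was 2.03 times as high in replicate 2, on 6 and 17 reads and with an interval that included equality, and 9.6% of the 323 entries were at least 2-fold higher and 22.3% at least 2-fold lower. Among the 77 entries with a mean of at least 100 CPM the shares were 1.3% and 15.6% with or without the pseudocount, with 0 of 6 members. The median size of the difference, without sign, was 0.18 over the 9 members and 0.49 over the 323 entries, and 0.18 over the 6 5p arms and 0.44 over the 77 entries. Members are not replicates, and with shares of this size a count of 0 among so few is not a result about the members.

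The direction and the size of these small differences depended on the scaling. The median difference over the 323 entries was -0.25 with CPM and 0.04 after scaling with the TMM factors of edgeR, a shift of 0.29. With TMM all 9 members were higher in replicate 2, with 0.36 for miR-99b-5p and 0.04 for miR-125b-5p, and with the size factors of DESeq2 8 of 9 were. With CPM 5 of 9 were higher. The median size of the difference over the 9 members was 0.18 with CPM and 0.36 with TMM, so how close they were depended on the scaling. The median size over all entries was not computed with TMM. Over all 323 entries 52.6% were higher with TMM, 49.8% with DESeq2 scaling and 34.1% with CPM. Among the 77 entries with a mean of at least 100 CPM 19.5% were higher with CPM, and 2 of the 6 members among them were. On the CPM scale 8 of the 9 members lay above the median of all 323 entries, where as many entries lie above a median as below it. TMM and DESeq2 scaling shift all log2 ratios nearly alike. The same count of 8 with each of them thus followed from the method and adds nothing. The remaining member, miR-125b-5p, lay at the median with TMM and below it with CPM and DESeq2 scaling.
miR-351-5p was higher in replicate 2 under each scaling, by 0.56 with CPM, 0.89 with TMM and 0.84 with DESeq2. The marker sets of smooth muscle and stroma and of blood were also higher there, with median differences of 0.56 and 0.62 on the same CPM scale. Those of germ cells, brain and epithelium were lower, with -1.27, -0.58 and -0.44, and that of skeletal muscle was at 0.18. Exceptions within these sets were miR-223-3p of blood (-0.65) and miR-1a-3p of skeletal muscle (-0.28), which were lower. miR-205-5p of epithelium (0.99) and miR-129-5p of brain (1.19) were higher against the direction of their sets. The part of other cells in the level of miR-351-5p was not tested.

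**Figure D4:**
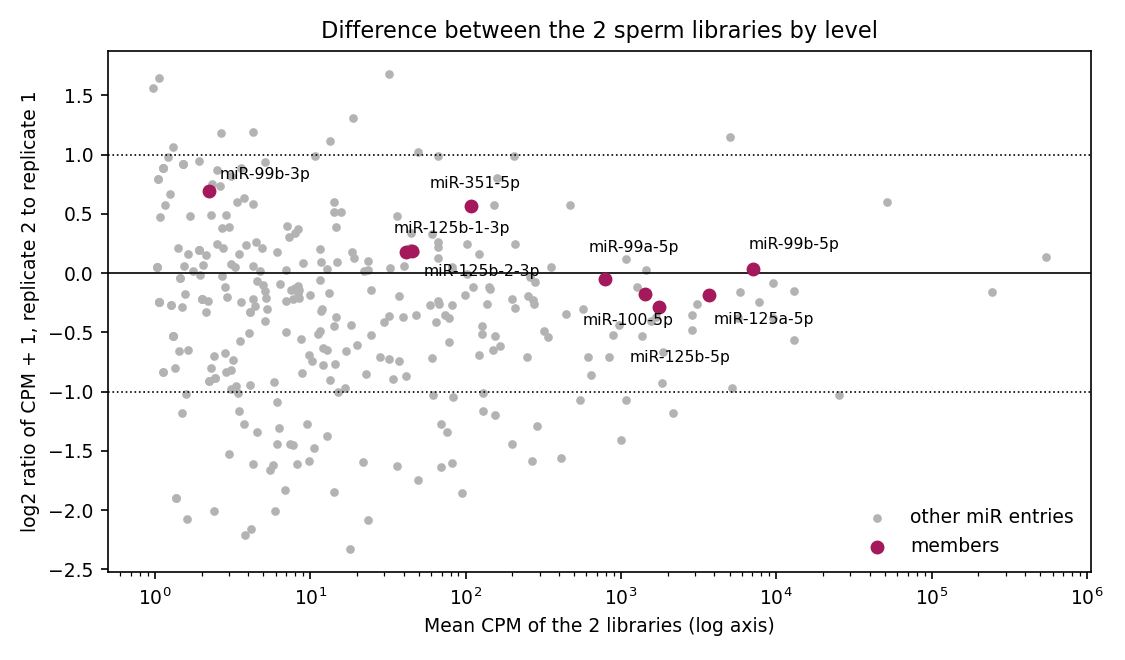
Difference of replicate 2 from replicate 1 in log2(CPM + 1) (y axis) against the mean CPM on a log axis (x axis) for the 323 entries whose summed count reached 10 reads, the 9 members in dark red and the others in grey. Dotted lines mark a 2-fold difference. The members lie between -0.29 and 0.69, inside the dotted lines on this scale (miR-99b-3p, with 6 and 17 reads, would lie outside without the pseudocount), where 3.1% of all entries lie above and 16.7% below them; after TMM scaling every member lies above 0.

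The members were also set beside miR-10a-5p and miR-10b-5p, because these relatives of the miR-99/100 family took 25.8% and 52.2% of the miR reads in replicate 1 and 23.1% and 57.3% in replicate 2. Their seeds differ from that of miR-99/100, while the middle of the sequences is shared. The closest pair is printed with the longest stretch of exact identity, 11 bases, in capitals:
miR-100-5p: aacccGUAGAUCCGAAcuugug
miR-10a-5p: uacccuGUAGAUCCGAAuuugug
With 1 mismatch allowed the shared stretch of this pair grew to 17 bases, which is longer than the shortest read kept. miR-99a-5p and miR-10a-5p, and miR-99b-5p and miR-10b-5p, shared at most 10 bases exactly and 13 bases with 1 mismatch. The authors first mapped reads to the miR reference without mismatches, under which no read of 15 or more bases fits both a miR-10 and a member sequence, and allowed 1 mismatch in later steps; which step gave the counts is not given in the sources used here. The counts give no view of single reads, and the part of sequencing errors in the miR-100-5p count was not tested.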

How the data were processed

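The deposited tables hold raw read counts for 1886 mature miR entries in each of 2 sperm libraries, with the replicates kept apart. The authors trimmed low-quality ends, removed adapters and reads under 15 bases with cutadapt 1.8.1, and mapped with bowtie 1.1.2, first without mismatches to miR and piRNA sequences; the submitters' processing notes also name HTSeq and the builds mm10 and GRCm38, and the miR annotation release is not given in the sources used here. The step that gave the counts is not named; exact mapping leaves out reads with errors or added bases. The labels name a TruSeq RNA Sample Preparation v2 kit and the paper a small RNA preparation with a TruSeq kit.

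Counts were scaled to 1000000 miR reads in each library (CPM); entries listing reads assigned to no miR were left out. Values are mean ± SD over the 2 libraries, with Wilson 95% intervals per library and exact conditional intervals for ratios. No test between groups was possible. Differences between the libraries used log2(CPM + 1) over entries whose summed count reached 10 reads, 2-fold being the limit. TMM (edgeR 4.0.16) and DESeq2 1.42.0 (R 4.3.3) gave other scalings. Named miRs were all member entries, their gene cluster neighbours, entries with the same seed, and the 2 entries closest in level to the leading member of each seed group. The members, lists and settings were chosen with earlier results of these data known. Sequences came from RefSeq and gene positions from GENCODE M21, both GRCm38. The computations recovered known differences and factors when tested on simulated data (Python 3.11.15, numpy 2.4.6, pandas 2.3.3, scipy 1.17.1).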

Additional observations from a re-analysis of the deposited data

How the results depend on the processing

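The share of miR reads on the members, 1.499%, was 1.01% of all listed reads and 7.21% when miR-10a-5p and miR-10b-5p were left out of the total. The miR-99/100 seed group, 0.933%, was 0.632% and 4.49% under these denominators, 0.939% with TMM and 0.937% with DESeq2 scaling, and the miR-125 seed group with miR-351, 0.557%, was 0.375% and 2.67%. The median difference between the libraries over the members, 0.03, was 0.28 with all listed reads, 0.20 without the miR-10 arms, 0.36 with TMM and 0.31 with DESeq2 scaling. These alternatives change the denominators of the libraries by construction. With each library alone the members' share was 1.46% to 1.54%, the miR-99/100 group 0.931% to 0.935% and the miR-125 group 0.518% to 0.596%, ranges that show no stability with 2 libraries. The number of detected members, 11, was 9 at a minimum of 5 reads and 8 at 10, 20 and 100 reads in each library. It was 11 in each library alone. It was also 11 after 1 random thinning of replicate 2 to the depth of replicate 1. That draw kept the only read of miR-99a-3p in replicate 2, and another draw could lose it. No pseudocount tried moved the members' median, but with 10 CPM added 6 of the 9 members lay above the median of all entries instead of 8. The number of members at least 2-fold different between the libraries, 0, was 1 (miR-99b-3p) without the miR-10 arms in the total. It was also 1 without a pseudocount. Both alternatives for this count were chosen after seeing the data. Of all 323 entries, 9.9% were at least 2-fold higher and 17.3% at least 2-fold lower without the miR-10 arms. Without a pseudocount these shares were 9.6% and 22.3%. No paired analysis was possible because the libraries form 1 group. The depth limits statements on miR-99a-3p, miR-99b-3p and miR-125a-3p, with at most 17 reads in a library.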
